A study of Homo sapiens with 4 samples.

Results

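Tail-anchored membrane proteins were followed through 4 ribosome profiling libraries of HEK293T cells. The set was defined by gene name and holds 10 genes, SEC61B, CYB5A, CYB5B, VAPA, VAPB, EMD, BCL2L1, MCL1, FIS1 and STX5. Of these, 7 have rows, each in all 4 libraries, among 9265 genes listed in all. CYB5B, VAPB and EMD were not analysed here.

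A tail-anchored protein carries its only membrane segment at the very C terminus, so the anchor leaves the ribosome only when translation ends, and the protein is inserted into the membrane after its release. Factors of the GET (TRC) pathway deliver such proteins to the endoplasmic reticulum (ER), the ER membrane protein complex (EMC) inserts many with moderately hydrophobic anchors, and others go to mitochondria or peroxisomes. Stop codon readthrough appends residues at this end of the protein, directly behind the anchor. The members reside in the ER (SEC61B, CYB5A, VAPA), the Golgi (STX5) and the outer mitochondrial membrane (BCL2L1, MCL1, FIS1).

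HEK293T is a transformed line derived from human embryonic kidney. Untreated cells and cells given G418 at 500 µg/mL for 24 hr were each profiled as biological replicates A and B. G418 is an aminoglycoside antibiotic that loosens decoding by the ribosome, so that near-cognate tRNAs can read stop codons. The question for these genes is how far ribosomes translate past the normal termination codon (NTC) in each condition, and whether translation of the coding sequence (CDS) itself differs.

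The ribosome readthrough score (RRTS) compares the density of ribosome protected fragments (RPFs) in the readthrough stretch, which runs from the NTC to the first stop codon in the same frame of the 3′UTR (3′TC), with their density in the CDS. It is the ratio of these densities, so a score of 1 means equal occupancy. The libraries hold between 2440204 RPFs on mRNAs (untreated B) and 6082600 (untreated A). Up to the first 3′TC they hold 4041 to 10533 reads in untreated and 61316 to 76369 in G418-treated cells. The 2 untreated libraries differed more from each other than the 2 G418 libraries did, with a chi-square per degree of freedom of 4.53 against 1.38 over 7328 transcripts. Of 6 marker genes of this line, all were listed in the 4 libraries (VIM at 533 to 658 RPKM of CDS density, KRT8 at 1.45 to 2.13), and PTPRC, ALB, HBB and CD3E, markers of blood and liver, were listed in none. Intervals given with values are 95% intervals that cover counting error only.

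The stop codons of the members and their surroundings are shown because the NTC and the nucleotide after it (+4) are the site that readthrough acts on. Sequences run 5′ to 3′ over 30 nt, from 15 nt upstream of the NTC, with the NTC and the +4 nucleotide in capitals. They were taken from GENCODE version 44 on hg38, where CDS length, NTC and 3′TC of all 7 equal the deposited values.
SEC61B: aaguacacucguucgUAGAuucaguuacau
CYB5A: uacauggcagaggacUGAAcaccuccucag
VAPA: gggaaauucaucuugUAGAgugaagcaugc
STX5: guggucuuccuugcuUGAAcccucucuacu
BCL2L1: cucuucagucggaaaUGACcagacacugac
MCL1: gcauaucuaauaagaUAGCcuuacuguaag
FIS1: uccaaguccaaauccUGAAggagacgcggg

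None of the 7 ends in UAA. CYB5A, STX5 and FIS1 share UGAA, SEC61B and VAPA share UAGA, BCL2L1 has UGAC and MCL1 has UAGC. All 7 stop codons lie in the last exon, so readthrough enters the 3′UTR without a further splice site. SEC61B spans chr9:99222282-99230615 on the plus strand, with its NTC at chr9:99230422-99230424 in exon 4. CYB5A spans chr18:74250846-74291963 on the minus strand (NTC chr18:74253584-74253586, exon 5). VAPA lies on the same chromosome at chr18:9914062-9954358 on the plus strand (NTC chr18:9954209-9954211, exon 7). STX5 spans chr11:62806860-62832051 on the minus strand (NTC chr11:62807469-62807471, exon 11). BCL2L1 spans chr20:31664458-31722868 on the minus strand (NTC chr20:31665949-31665951, exon 3). MCL1 spans chr1:150574558-150579610 on the minus strand (NTC chr1:150577375-150577377, exon 3). FIS1 spans chr7:101239472-101245081 on the minus strand (NTC chr7:101239806-101239808, exon 5).

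The anchors were placed in the encoded proteins by hydropathy. High values follow from that choice, and they were not ranked against all transcripts. The most hydrophobic window of 19 residues within the last 60 had a mean Kyte-Doolittle hydropathy (positive for hydrophobic residues) between 1.68 in BCL2L1 and 3.30 in STX5. It ended at the last residue of VAPA, 1 residue before the end of MCL1, 2 before the end of CYB5A, STX5 and BCL2L1, and 7 before the end of SEC61B and FIS1. The tail that protrudes behind the anchor is thus at most 7 residues long in all 7 proteins.

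Reading through the NTC would lengthen that tail by very different amounts. The extension up to the first 3′TC is 7 codons in MCL1 and 8 in SEC61B, which are shorter than in most transcripts (percentiles 7.46 and 10.8 among 8503 transcripts with a median of 22 codons). It is 14 codons in VAPA, 24 in STX5 and 36 in FIS1. BCL2L1, with 60 codons, and CYB5A, with 72, have long extensions (percentiles 86.9 and 91.4). The extensions of VAPA (mean hydropathy 1.46, percentile 96.4) and SEC61B (0.99, percentile 91.7) are more hydrophobic than most, and that of MCL1 (-0.87, percentile 17.1) is hydrophilic. The others lie between -0.52 and 0.10, around the median of -0.17.

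SEC61B is the beta subunit of the Sec61 channel, through which secretory proteins enter the ER. Its RRTS was 0.0468 in untreated A and 0.0453 in untreated B, and rose to 0.163 in G418 A and 0.143 in G418 B. These scores rest on 5 and 2 reads in untreated and 11 and 8 in G418-treated cells, in a stretch of 21 nt. The groups did not overlap, and the pooled score rose 3.32-fold (1.34 to 9.35). With edgeR's quasi-likelihood test over all transcripts the log2 fold change was 1.69 (SE 0.69, adjusted p = 0.020). That call was lost with DESeq2 (adjusted p = 0.14), with library totals in place of CDS reads (0.12), without untreated replicate A (0.096) and without G418 replicate A (0.11), over a range of 2e-11 to 0.14 among 10 alternatives.

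CYB5A, cytochrome b5, passes electrons to desaturases and cytochrome P450 enzymes at the ER. It had no read in the 213 nt before its first 3′TC in untreated A and 1 read in untreated B, against 18 reads in each G418 library. The RRTS was therefore 0 and 0.0224 in untreated cells, where 3 reads would have corresponded to 0.0321 and 0.0672. It reached 0.132 in G418 A and 0.155 in G418 B. With 1 untreated read the pooled ratio of 19.7 has an interval from 3.31 to 798, and the fitted log2 change was 4.08 (SE 0.95, edgeR adjusted p = 5.3e-05, past the threshold in all 8 alternatives that tested it). The size was less stable than the call, at 2.79 over the whole 3′UTR and, with no untreated read left, at 7.05 without untreated replicate B, which is a fitted value and no bound. The annotation names 4 pseudogenes of CYB5A, and the authors kept 1 alignment for a read that maps to several places, so reads may have been shared between them.

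VAPA tethers the ER to other organelles by binding proteins with FFAT motifs. No read fell in the 39 nt before its first 3′TC in either untreated library, which allows scores of up to 0.0855 and 0.246 at 3 reads. G418 A held 5 reads (RRTS 0.122) and G418 B held 2 (0.0612). Taken over both libraries, the G418 score was at least 1.5-fold higher than a floor of 3 untreated reads. With 7 reads in all, VAPA did not reach the 10 reads required for the test.

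STX5, a SNARE of ER to Golgi and intra-Golgi transport, likewise had no read before its first 3′TC in untreated cells. There, 3 reads would have given scores of 0.187 in untreated A and 0.495 in untreated B. The upper 95% limits at 0 reads were 0.230 and 0.608. With G418 it was 0.306 in replicate A (6 reads) and 0.268 in replicate B (4 reads), at least 2.14-fold above the untreated floor. edgeR called the change (adjusted p = 0.0091). Its fitted log2 value of 5.08 depends on how 0 counts are modelled and is no bound. In 4 alternatives its adjusted p ranged from 0.0027 to 0.094. Without untreated replicate A or either G418 replicate too few reads remained for the test.

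BCL2L1 encodes the antiapoptotic protein BCL-XL. It was the least translated member, with 35 and 8 CDS reads in untreated A and B and 42 and 30 in G418 A and B. It had no read before the first 3′TC in untreated cells, 4 in G418 A (RRTS 0.360) and none in G418 B. No difference was detectable at this depth, since 3 reads would have given a score of 0.324 in untreated A and 1.42 in untreated B. With 92 mRNA reads in untreated cells it did not enter the test.

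MCL1, an antiapoptotic BCL2 relative with a short-lived protein, had the highest readthrough score of the members. Its RRTS was 0.0440 in untreated A and 0.111 in untreated B, on 1 read each, and 0.729 in G418 A and 0.624 in G418 B, on 12 and 9 reads. The pooled score rose 10.8-fold (2.64 to 94.9), and the fitted log2 change was 3.27 (SE 0.89, edgeR adjusted p = 0.00052). The call held in 9 of 10 alternatives and was lost without untreated replicate A (log2 change 2.52, adjusted p = 0.051). The stretch counted is only 18 nt long. By its length it takes in the 3′TC itself, as do the stretches of the other members and of GOSR1 and TOMM22 below. Ribosomes that pause on that codon may thus be part of all these scores, which was not tested.

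FIS1 recruits the fission machinery to mitochondria. Its RRTS was 0.0147 in untreated A and 0.137 in untreated B, on 1 and 3 reads, and 0.120 in G418 A and 0.139 in G418 B, on 9 and 10 reads. Untreated B lay between the G418 libraries, so the groups overlap. The fitted log2 change was 1.48 (SE 0.82) and did not pass (edgeR adjusted p = 0.080). It passed without untreated replicate B (log2 change 3.0, adjusted p = 0.010), with library totals in place of CDS reads (0.023) and over the whole 3′UTR (0.019).

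**Figure D1:**
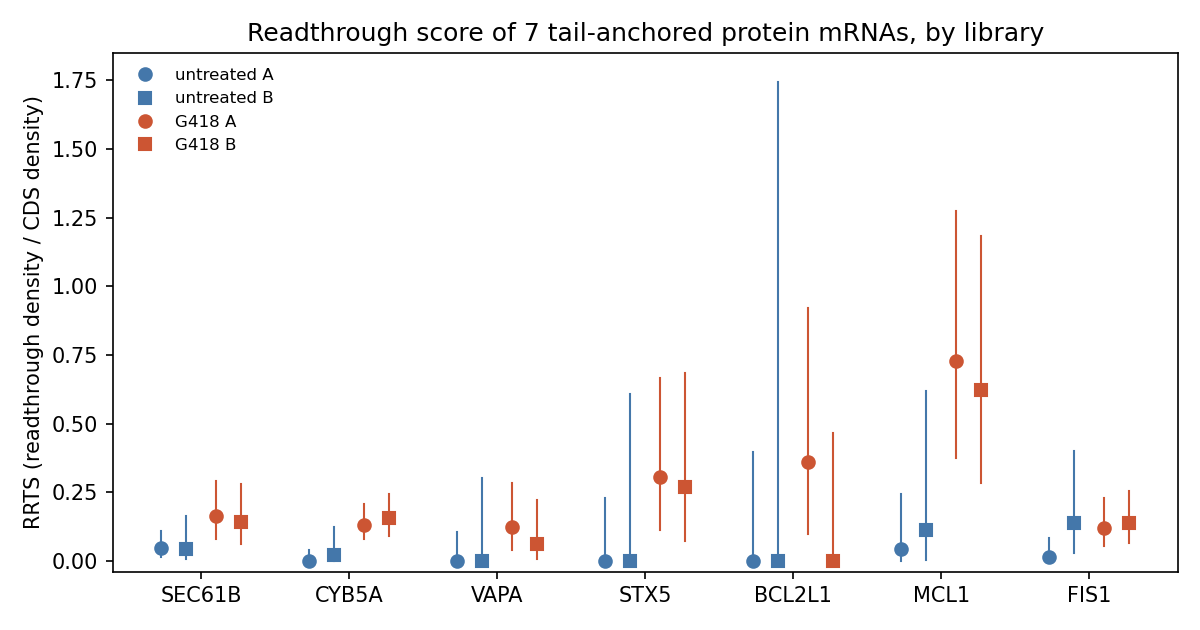
RRTS (y axis, ratio of densities) of the 7 members in untreated A and B (blue) and G418 A and B (orange), with vertical lines for the 95% counting interval. MCL1 stands highest with G418 (0.624 and 0.729), and untreated B of FIS1 (0.137) lies among its G418 values.

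In all, 4 of the 5 members that entered the test were called higher and none lower. This stands beside 82.6% of 2827 transcripts called higher, and it is a share near that background. SEC61B, CYB5A, STX5 and MCL1 were the 4. Members entered mostly through their G418 reads, because the filter asks for 10 reads over the 4 libraries.

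With G418 the pooled scores ordered as MCL1 (0.680), STX5 (0.290), BCL2L1 (0.210), SEC61B (0.154), CYB5A (0.143), FIS1 (0.130) and VAPA (0.0951). Only MCL1 was separated from its neighbour in this order, as its lower library (0.624) lay above the higher library of STX5 (0.306). Their counting intervals still overlapped. All other neighbours had overlapping library values. Among 7190 transcripts, whose median pooled score was 0.206, MCL1 reached percentile 91.6, and the others ranged from 26.2 (VAPA) to 64.4 (STX5).

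Each member was also set against transcripts with the same NTC and +4 nucleotide. Against the 473 transcripts with UAGC, which had a median of 0.256, MCL1 was at percentile 89.2. SEC61B and VAPA, both UAGA, lay at percentiles 44.04 and 31.2 of 445 transcripts (median 0.170). CYB5A, FIS1 and STX5 share UGAA, with a median of 0.277 over 972 transcripts, and lay at percentiles 24.7, 22.5 and 52.7. BCL2L1 was at percentile 26.9 of the 761 transcripts with UGAC, the context with the highest median of the 4 present here (0.389). Among the 758 transcripts with a stretch within 25% of the length of that of MCL1, the median was 0.229 and MCL1 was at percentile 85.1.

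Summed over the 7 members, RRTS was 0.0199 in untreated A and 0.0499 in untreated B, a mean of 0.0349 ± 0.0212 (SD, n = 2), from 7 reads in each library. With G418 it was 0.177 and 0.163, a mean of 0.170 ± 0.0104 (SD, n = 2), and the means differed 4.86-fold. The same sums over all transcripts that passed the mRNA read minimum of the test in each condition were 0.0190 and 0.154, a ratio of 8.12. The untreated libraries of the members differed more from each other than those with G418, and the members are compared with all transcripts as a description only.

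Relative to the density before it, ribosome density past the first 3′TC was higher in the members with short 3′UTRs. The measure divides by the length after the 3′TC, so it depends on 3′UTR length. In pooled G418 reads, SEC61B (84 after, 19 before), VAPA (36, 7) and MCL1 (74, 21) had more after the 3′TC than before. FIS1 (12, 19), CYB5A (4, 36), STX5 (3, 10) and BCL2L1 (3, 4) had fewer. SEC61B, VAPA and FIS1 have 3′UTRs of 191, 147 and 194 nt in the deposited models, and their density after the first 3′TC in G418-treated cells was 56.6%, 197% and 79.9% of that before it. In 290 transcripts with 3′UTRs up to 250 nt the median was 16.7% (interquartile range 8.32 to 32.4). This puts the 3 at percentiles 92.4, 99.3 and 97.2. The 290 had at least 10 G418 reads before the 3′TC and at least 30 nt after it. VAPA, with 7 such reads, did not meet that minimum, so its percentile sets it against transcripts with more reads. By library with G418, SEC61B was at 58.2% and 54.4%, FIS1 at 98.4% and 63.3%, and VAPA at 122% in replicate A and 382% in replicate B, on 5 and 2 reads before the 3′TC. Untreated SEC61B was at 48.7% in replicate A and 25.6% in replicate B, and untreated FIS1 at 253% and 0%, on 1 and 3 reads before the 3′TC. VAPA had no untreated value, since no read lay before its 3′TC. The members with longer 3′UTRs were at 0.94% (CYB5A), 2.27% (MCL1), 4.17% (STX5) and 10.2% (BCL2L1). The median over 2438 transcripts of all lengths was 2.90%. These had the same minimum of reads, which BCL2L1, with 4, did not meet. Summed over the members, the share was 22.1% ± 13.9 in untreated and 16.04% ± 0.219 in G418-treated cells (SD, n = 2 each), and over all transcripts it was 8.24% ± 0.590 and 2.83% ± 0.00636. These sums depend on 3′UTR length in the same way and were not matched for it.

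VAPA gave the highest such share with G418. It had 1 read and no read after the first 3′TC in untreated A and B, but 16 and 20 in G418 A and B, more than the 5 and 2 before it. SEC61B had 19 and 4 reads there in untreated and 50 and 34 in G418-treated cells. FIS1 had 2 and 0 in untreated and 7 and 5 in G418-treated cells. MCL1, with a 3′UTR of 2817 nt, had 3 and 4 reads in untreated cells and 40 and 34 with G418.

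When the reads after the first 3′TC were tested in the same way, an alternative added after the data were seen, 43.2% of 2065 transcripts were called higher. SEC61B (log2 change 2.15, SE 0.36, edgeR adjusted p = 3.5e-08), VAPA (4.29, SE 0.89, adjusted p = 1.7e-05) and MCL1 (3.39, SE 0.47, adjusted p = 2.7e-11) were among them. FIS1 was not (1.79, SE 1.03, adjusted p = 0.15). The next stop codon in the same frame lies 138 nt after the NTC in VAPA, 123 in FIS1, 84 in SEC61B and 81 in MCL1. The files give no reading frame for these reads, so continued in-frame translation and other ribosomes in the 3′UTR cannot be told apart. Over the whole 3′UTR, where 70.3% of 4086 transcripts were called higher, the 6 members that could be tested were all called, with log2 changes from 1.62 (FIS1) to 4.55 (VAPA).

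**Figure D2:**
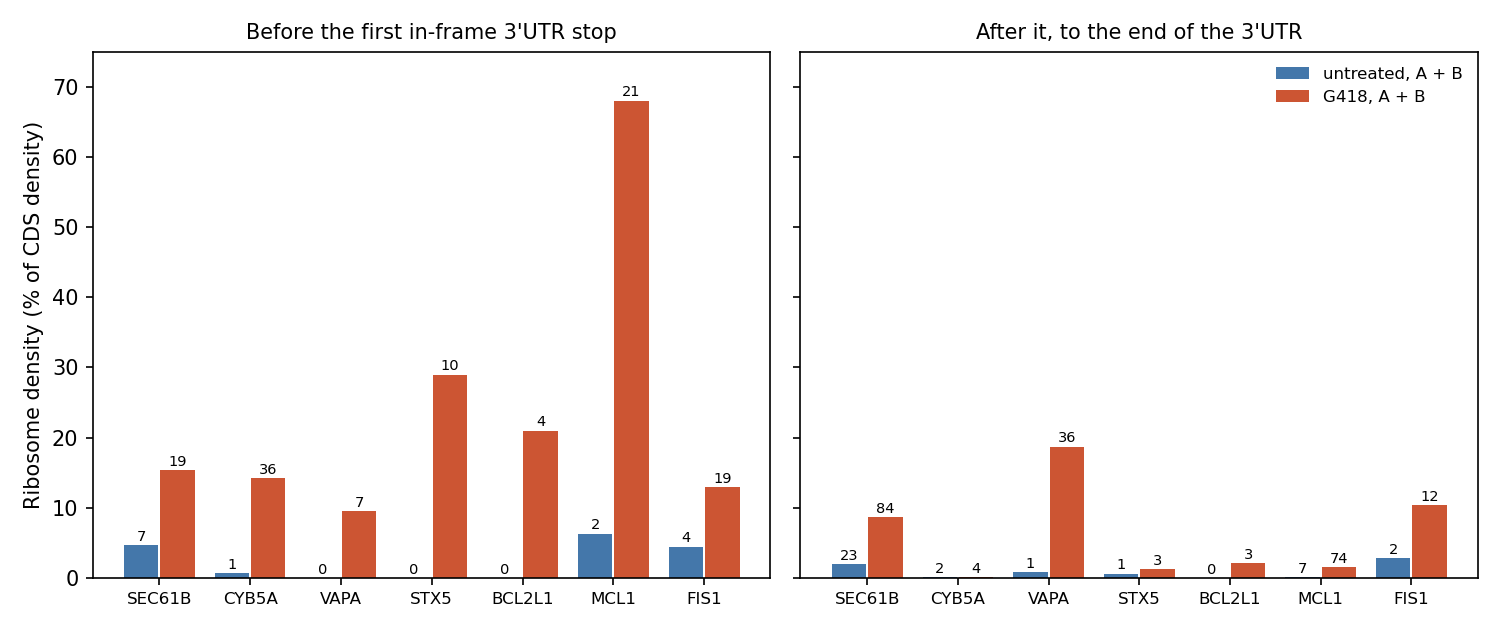
Pooled ribosome density (y axis, percent of the CDS density) before the first in-frame 3′UTR stop (left) and after it (right) for untreated (blue) and G418-treated (orange) cells, with the number of reads above each bar. MCL1 is highest before the stop (68.0% with G418), and VAPA is highest after it (18.7%).

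Translation of the coding sequences themselves moved in both directions. SEC61B and MCL1 fell with G418 and CYB5A rose. Per length, the order of CDS density in untreated cells ran from SEC61B (mean 556 RPKM, percentile 97.3 among 8650 transcripts) over MCL1 (135), VAPA (90.5), FIS1 (63.1), CYB5A (51.5) and STX5 (24.3) to BCL2L1 (4.47, percentile 19.6). VAPA, FIS1 and CYB5A had neighbouring densities, and the lower library of FIS1 (53.7) overlapped CYB5A (49.1 and 53.9).

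SEC61B had 147 and 140 RPM of CDS reads in untreated A and B and 98.9 and 89.6 RPM in G418 A and B. The groups did not overlap, and the fitted log2 change was -0.68 (SE 0.10, edgeR adjusted p = 3.1e-05). It passed in all 9 alternatives, the weakest being that without G418 replicate B (adjusted p = 0.041). MCL1 had 144 and 131 RPM in untreated and 111 and 107 RPM in G418-treated cells, a log2 change of -0.41 (SE 0.10, adjusted p = 0.0051). Its call was lost without G418 replicate A (0.45) or B (0.34), and its adjusted p ranged down to 5.9e-08 in the other alternatives.

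CYB5A went the other way, from 18.3 and 20.1 RPM to 28.4 and 26.5 RPM. The log2 change of 0.47 (SE 0.15, edgeR adjusted p = 0.045) was close to the threshold and was lost with DESeq2 (0.32) and without untreated A (0.25), G418 A (0.56) or G418 B (0.58). It passed in the other 5 of 9 alternatives, down to 0.00054.

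VAPA, FIS1, STX5 and BCL2L1 did not pass. VAPA read 85.9 and 68.4 RPM in untreated and 107 and 93.1 RPM in G418-treated cells (log2 change 0.28, adjusted p = 0.085). FIS1 read 30.9 and 22.9 RPM and then 36.3 and 37.9 RPM (0.35, adjusted p = 0.11). STX5 was at 26.99 and 23.4 RPM and then at 35.1 and 29.2 RPM (0.27, adjusted p = 0.25). For these 3 genes both G418 libraries lay above both untreated ones in RPM. The share of all transcripts that separate in this way was not counted. With library totals in place of the scaling of the test, the median log2 change over all 8494 transcripts was 0.086, against 0.002. BCL2L1 was at 3.92 and 2.06 RPM and then at 5.01 and 3.91 RPM, and its groups overlapped (0.36, SE 0.30, adjusted p = 0.51).

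Thus 3 of 7 members changed, 1 higher and 2 lower, where 5.31% of 8494 transcripts were called higher and 3.21% lower (8.52% in either direction). Scaling by library totals instead moved the background to 9.42% higher and 1.65% lower, and then VAPA and FIS1 also passed as higher, for 3 higher and 2 lower. mRNA levels were not analysed here, and CDS reads count ribosomes in bulk cells, so from these libraries fewer cells with the mRNA, less mRNA per cell and fewer ribosomes per mRNA cannot be told apart.

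**Figure D3:**
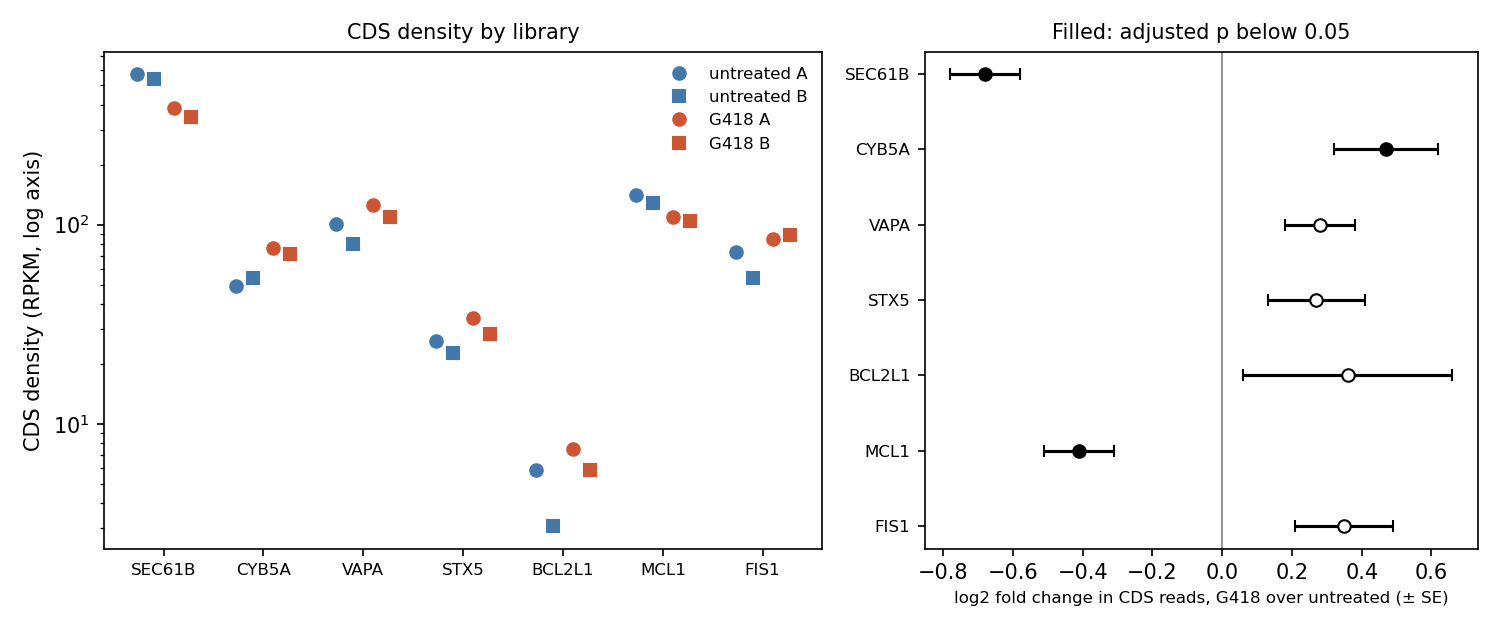
Left, CDS density (y axis, RPKM on a log scale) of the 7 members in untreated A and B (blue) and G418 A and B (orange). Right, fitted log2 fold change in CDS reads with its SE, filled where the adjusted p is below 0.05. SEC61B (-0.68) and MCL1 (-0.41) lie left of 0, and CYB5A (0.47) lies to the right.

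BCL2L1 had the most 5′UTR reads relative to CDS reads among the members, on few CDS reads. It had 31 reads in the 5′UTR beside 35 in the CDS in untreated A and 18 beside 8 in untreated B. With G418 there were 27 beside 42 in replicate A and 24 beside 30 in replicate B. Over both libraries the 5′UTR held 49 reads to 43 in the CDS in untreated and 51 to 72 in G418-treated cells. Over all transcripts there were 4.86 and 5.58 reads in 5′UTRs per 100 in the CDS in untreated A and B and 4.74 and 4.87 in G418 A and B. FIS1 had means of 30.7 per 100 in untreated and 25.3 in G418-treated cells. In untreated cells VAPA (13.2), CYB5A (11.3) and SEC61B (8.53) also lay above the values over all transcripts, and STX5 (2.48) lay below. MCL1 is at the other end, with 1 read in the 5′UTR and 1798 in the CDS of untreated cells. These ratios are not per length and were not tested.

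Other proteins with a tail anchor were taken from 3 lists, of which 39 of 47 genes had values. The 35 of them that passed the mRNA read minimum in each condition had a pooled RRTS of 0.0356 ± 0.00310 in untreated and of 0.208 ± 0.00368 in G418-treated cells (SD, n = 2 each). Of the 39 genes 15 could be tested and 10 were called higher (82.6% of all transcripts tested), with none lower. Their median log2 change was 2.93, or 2.33 with the 2 genes that had no untreated read set against the floor of 3 reads. The medians of all transcripts tested were 3.18 and 2.59. Genes without an untreated read entered the test through their G418 reads alone, so their calls below add nothing on how many such genes change.

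Among ER proteins the partner of SEC61B in the Sec61 channel, SEC61G, had more readthrough reads than any of the 7 members. It held 6 and 3 reads before its first 3′TC in untreated A and B and 145 and 124 in G418 A and B. Its RRTS rose from 0.0129 and 0.0188 to 0.379 and 0.383, with a log2 change of 4.68 (SE 0.31, edgeR adjusted p = 3.4e-48). SEC61G has a UGA followed by A at its NTC, an extension of 16 codons and a hydrophobic window that ends 14 residues from the C terminus. Its 30 nt around the NTC (chr7:54752411-54752413, minus strand, hg38) are shown for comparison with SEC61B, and the annotation names 1 pseudogene of SEC61G.
SEC61G: aucauuguugguggcUGAAuacauuuugga

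The other ER gene tested was PTPN1, an ER-bound tyrosine phosphatase, with no untreated read and 6 and 5 with G418. Pooled, this was 2.78 times the score at the floor of 3 untreated reads (edgeR adjusted p = 0.0037). Ratios to this floor, here and below, take the G418 reads as exact and are no lower limits. The PTPN1 call was lost with DESeq2 and without untreated replicate A. Of 19 SNAREs with values 5 were tested and 4 called higher, about the 82.6% of all transcripts tested. VAMP3, of recycling endosomes, rose from 3 and 0 reads to 28 and 20 (log2 change 3.65, SE 0.65, adjusted p = 8.4e-08). STX12, of endosomes, rose from 1 and 0 reads to 12 and 11 (3.96, SE 1.02, adjusted p = 0.00026). GOSR1, a Golgi SNARE, had no untreated read and 8 and 2 with G418 in a stretch of 18 nt (2.81 times the floor, adjusted p = 0.0039). Without untreated replicate A the GOSR1 call was lost, and the fitted changes of VAMP3 and STX12, then without an untreated read, were 7.33 and 6.29.

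Of 13 mitochondrial and peroxisomal proteins with values 8 were tested and 4 called higher, beside 82.6% of all transcripts tested. TOMM6, a small subunit of the translocase of the outer mitochondrial membrane, rose from an RRTS of 0.0369 and 0.0253 to 0.191 and 0.166 (log2 change 2.43, SE 0.26, edgeR adjusted p = 2.8e-19). TOMM22, its central receptor, went from 1 and 0 reads to 3 and 8 in a stretch of 12 nt (3.01, SE 1.18, adjusted p = 0.015). The annotation names 6 pseudogenes of TOMM22. RHOT1, which links mitochondria to motors, went from 1 and 0 reads to 10 and 5 (2.93, SE 1.16, adjusted p = 0.015). The calls of TOMM22 and RHOT1 were lost with DESeq2, and that of TOMM22 also without untreated replicate A (fitted change 5.25, with no untreated read left).

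TOMM7, TOMM5 and BAX, named here after their values were seen, were near 0 in fitted change. TOMM7 had an RRTS of 0.0866 and 0.0917 in untreated and 0.106 and 0.0882 in G418-treated cells, a pooled ratio of 1.12 (0.662 to 1.89, edgeR adjusted p = 0.71). TOMM5 read 0.156 and 0.149 and then 0.196 and 0.120, a ratio of 1.05 (0.590 to 1.89, adjusted p = 0.89). BAX, a proapoptotic protein, had a log2 change of 0.40 (SE 0.86, adjusted p = 0.66). The transcript models used for TOMM5 and TOMM7 encode 98 and 125 residues, and their most hydrophobic window near the C terminus scored -0.21 and 0.77, below the lowest member at 1.68. The stop codons measured in these models may thus not follow an anchor. PTPN1 (1.64), RHOT1 (1.57) and TOMM6 (1.35), which were called, and BAX (1.39) also scored below 1.68. In TOMM22, also called, the window ended 41 residues before the C terminus. Low or distant windows were therefore not limited to genes without a change. Of the 39 other tail-anchored proteins 27 scored at least as high as the lowest member.

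Of the GET pathway genes that insert tail-anchored proteins, 5 were tested and 4 called higher, a share near the 82.6% of all transcripts tested. BAG6, a chaperone that captures released tail-anchored proteins, had no untreated read and 13 and 12 with G418. Pooled, this was 7.74 times the score at the floor (edgeR adjusted p = 3.9e-06). ASNA1, the ATPase that carries the anchor, had 9 and 5 G418 reads (4.05 times the floor, adjusted p = 0.00061). GET4, which bridges BAG6 to ASNA1, had 6 and 8 (2.72 times the floor, adjusted p = 0.0031). SGTA, which binds the anchor before ASNA1, was the gene not called (adjusted p = 0.41). The GET4 call was lost with DESeq2 and without untreated replicate A.

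In the EMC, with 10 genes, 3 of 5 tested were called higher, against 82.6% of all transcripts tested. EMC6 had 5 and 1 untreated reads and 33 and 28 with G418 (log2 change 3.03, SE 0.51, edgeR adjusted p = 1.9e-08). EMC2 went from 1 and 0 to 7 and 10 reads (3.49, SE 1.09, adjusted p = 0.0025). MMGT1 went from none to 10 and 5 (3.44 times the floor, adjusted p = 0.0011). The MMGT1 call was lost over the whole 3′UTR and without untreated replicate A, and that of EMC2 with DESeq2. Without untreated replicate A, EMC6 was at 3.99 and EMC2, with no untreated read left, at 5.80. Among genes that remove mislocalised tail-anchored proteins, RNF126 (3.24, SE 0.66, adjusted p = 4e-06) and UBQLN1 (0.95, SE 0.44, adjusted p = 0.041) were the genes tested of 4 with values, and both were called, beside 82.6% of all transcripts tested. The UBQLN1 call was lost with DESeq2 and with a minimum of CDS reads in place of readthrough reads. It was also lost without untreated replicate A (log2 change 0.45) and without G418 replicate B (log2 change 0.62).

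**Figure D4:**
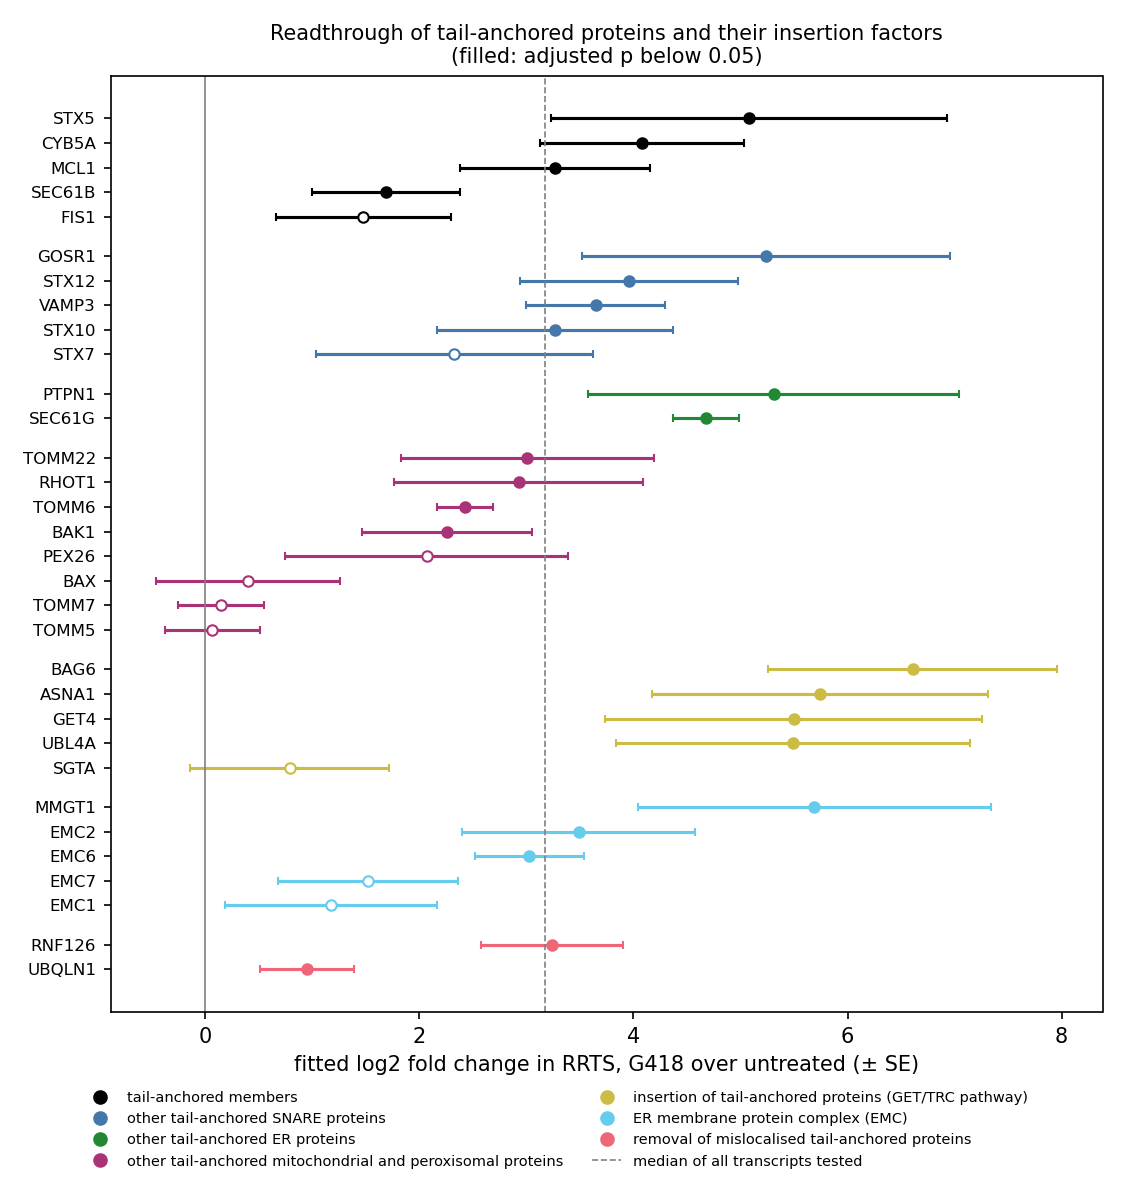
Fitted log2 fold change in RRTS, G418 over untreated, with its SE (x axis) for each tested member and list gene (y axis), coloured by list and filled where the adjusted p is below 0.05. The dashed line is the median of all transcripts tested (3.18). TOMM5, TOMM7 and BAX lie near 0, and values of genes without untreated reads, such as BAG6, are fitted and no bounds.

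In their CDS reads, these genes mostly did not pass. Of the 38 other tail-anchored proteins tested, 6 were higher and none lower (median log2 change 0.12, against 0.00 over all transcripts tested, of which 5.31% were higher and 3.21% lower). They were the SNAREs VTI1B (0.98, edgeR adjusted p = 0.0026), STX16 (0.81, adjusted p = 0.012) and STX10 (0.66, adjusted p = 0.017), the proapoptotic BAK1 (0.73, adjusted p = 0.0032), the peroxisomal PEX26 (0.54, adjusted p = 0.033) and the ER ubiquitin-conjugating enzyme UBE2J1 (0.63, adjusted p = 0.004). None of the 6 passed with DESeq2, which gave STX16 no adjusted p, or without G418 replicate A, where 8 and 7 of the 38 had an unadjusted p under 0.05. VTI1B alone passed without G418 replicate B.

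VTI1B showed the largest change of these, from 8.40 and 4.11 RPM in untreated to 15.03 and 13.6 RPM in G418-treated cells, with a fitted change of 1.65 without untreated replicate A. Among the insertion factors BAG6 fell from 335 and 354 RPM to 296 and 290 RPM (log2 change -0.30, SE 0.09, edgeR adjusted p = 0.027), and GET4 rose from 37.6 and 34.5 RPM to 48.9 and 51.9 RPM (0.41, SE 0.12, adjusted p = 0.030). EMC8 rose from 39.2 and 42.2 RPM to 62.3 and 58.7 RPM (0.52, adjusted p = 0.0038) as the only called gene of 10 in its complex, and UBQLN4 rose from 32.3 and 32.7 to 54.4 and 44.7 RPM (0.55, adjusted p = 0.0042). The calls of all 4 were lost with DESeq2, without G418 replicate A and without G418 replicate B, and that of BAG6 also with library totals.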

How the data were processed

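Ribosome profiling reads of untreated and G418-treated HEK293T cells were processed by the authors, who merged duplicate reads by their molecular identifiers, removed noncoding RNA reads, aligned the rest to hg38 with STAR guided by GENCODE version 30, kept 1 alignment per read and chose 1 transcript per gene. Footprints of 28 to 35 nt were counted. The deposited counts, not normalized, equal the reads recovered below or lie 1 read lower (CDS counts 1 lower for 99.9% and 38.01% of transcripts in G418 A and B, and for 1.30% and 0.113% in untreated A and B). The authors' RPM values scale them to mapped reads. The deposited RPKM values are RPM per length, leaving out 18 and 15 nt at the ends of the CDS and 6 nt after the NTC. Each deposited ratio (RRTS, and the occupancy of the 3′UTR) is a density divided by that of the CDS. A deposited 5′UTR density, a score here, went unused.

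Whole reads were recovered from RPM (100% of values whole within 0.001 of a read). The members and gene lists were chosen with earlier results of these data known. Readthrough was tested with edgeR 4.0.16 (quasi-likelihood, offset of log CDS reads, at least 10 reads in the readthrough stretch and 128 mRNA reads per condition, 2827 transcripts) and deposited CDS counts with edgeR (TMM, filter on low counts, 8494 transcripts), both with Benjamini-Hochberg adjustment over all transcripts and a threshold of 0.05. Both tests were checked on simulated data in which a small part of the transcripts changed. For readthrough these were chosen among transcripts with more reads than any member, so that check does not cover the members' low counts. Alternatives were DESeq2 1.42.0, other minimum reads, the whole 3′UTR, library totals, a replicate block and leaving out each library. Leaving 1 library in a condition assumes that it varies like the other pair. An exact permutation test of 2 libraries against 2 cannot go below p = 0.333. Up to 3 called genes with the largest change were named per list and test, besides all members. Extensions and contexts came from GENCODE version 44 (8915 of 9271 transcripts matched). Versions were R 4.3.3, Python 3.11.15, pandas 2.3.3 and scipy 1.17.1. Depth ranged from 2440204 to 6082600 mRNA reads.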

Additional observations from a re-analysis of the deposited data

How the results depend on the processing

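No member changed direction under any alternative run. The shares over all transcripts tested moved as well. For RRTS, DESeq2 called 1408 of 2827 higher, the minimum of CDS reads 1946 of 3509 and the minimum of 20 reads 1536 of 1662. Of the members, 5 were tested with DESeq2 and 3 with the minimum of CDS reads. Of the other tail-anchored proteins, 15 were tested with DESeq2 and 8 with the minimum of 20 reads. For CDS reads, DESeq2 called 113 of 8494 higher and 140 lower. The number of members called with a higher RRTS, 4, became 2 with DESeq2 (STX5 had no adjusted p there) and 2 with a minimum of CDS reads in every library in place of one of readthrough reads, and ranged from 0 to 5 when single libraries were left out. The 0 came without untreated replicate A, where edgeR tested 2 members and 1 had an unadjusted p under 0.05. The number with changed CDS reads, 3, became 5 with library totals and ranged from 1 to 4 without single libraries. Of the other tail-anchored proteins, 10 were called with a higher RRTS, but 4 with DESeq2, 6 with a minimum of 20 reads, 5 for reads after the first in-frame 3′TC (added after the data were seen) and 4 to 9 without single libraries. Their 6 changed CDS became 0 with DESeq2 (8 at an unadjusted p under 0.05) and 0 to 12 without single libraries. The pooled RRTS of the members became 0.00606 in untreated and 0.0327 in G418-treated cells over the whole 3′UTR, and 0.237 with G418 as an unweighted mean, which weights short stretches like long ones. The members' pooled density after the 3′TC, relative to that before it, was 16.8% with G418 as a median over members. Among other genes, fitted log2 changes in RRTS reversed for BAX (-0.27) and TOMM5 (-0.65) over the whole 3′UTR, for TOMM5 (-1.08) and MMGT1 (-0.10) in reads after the first 3′TC, for TOMM5 without single libraries (-0.35 to 0.34) and for TOMM7 with library totals (-0.02). The cause of these changes was not tested. The replicate letters pair nothing that the labels name, and same-lettered libraries deviated together with a correlation of 0.188. With a replicate block 3 members had a higher RRTS (STX5 reached an adjusted p of 0.094), 4 members had changed CDS reads (VAPA added), and 6 other tail-anchored proteins had a higher RRTS (the calls of PTPN1, GOSR1, TOMM22 and RHOT1 were lost). The UBQLN1 call was lost as well. The small number of readthrough reads limits the untreated scores most, since the members held 7 in each untreated library. Untreated A was nevertheless the deepest of the 4 libraries, with 6082600 RPFs on mRNAs.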
